A study of Homo sapiens with 6 samples.

Results

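The mature miRNAs of BEAS-2B cells were followed after exposure to TGF-β1. BEAS-2B is an immortalised line of human bronchial epithelial cells, a wild-type line by its label, and it made up 3 of the 6 small RNA libraries of the study. The libraries were chosen by their cell line label alone, as 1 untreated control, 1 treated with TGF-β1 at 1 ng/mL (T1) and 1 treated at 5 ng/mL (T5). The treatment ran for 48 h in RPMI medium with 1% fetal bovine serum, and the same medium was taken to apply to the control, for which no medium of its own was stated. All 2588 mature miRNAs of the deposited table were examined, and 1307 of them had a count in at least 1 of the 3 libraries. Each dose had 1 library from 1 cell line, so no value has a replicate error, no test was possible, and a difference between libraries cannot be told apart from a difference between cultures.

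A miRNA is cut from a hairpin precursor, which can release a mature strand from its 5′ arm (5p) and from its 3′ arm (3p). The bases at the start of the mature strand, called the seed, pair with target mRNAs and lower their translation or stability, so that miRNAs with the same seed share targets. TGF-β1 is the central profibrotic cytokine of the lung and drives epithelial cells toward a mesenchymal state. Its SMAD effectors act on miRNAs both at transcription and at the processing of precursors, and miR-21 is the best known example of the latter.

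Sequences of the miRNAs on which the results turned are given from RefSeq (GRCh38.p14), 5′ to 3′, with the seed, bases 2 to 8, in capitals. Of the 2588 names, 2281 had a sequence there, among them 117 of the 126 most abundant miRNAs described below. Beside miR-21-3p, the miRNAs with the most marked increases were the following, with miR-181a-5p and miR-181b-5p sharing a seed.
hsa-miR-21-5p: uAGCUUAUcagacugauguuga
hsa-miR-455-3p: gCAGUCCAugggcauauacac
hsa-miR-455-5p: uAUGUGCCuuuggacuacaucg
hsa-miR-181a-5p: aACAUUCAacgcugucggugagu
hsa-miR-181b-5p: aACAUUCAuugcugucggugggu
hsa-miR-181a-2-3p: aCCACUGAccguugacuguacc
hsa-miR-27a-5p: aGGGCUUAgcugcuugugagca
hsa-miR-148a-3p: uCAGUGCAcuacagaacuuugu
hsa-miR-193b-3p: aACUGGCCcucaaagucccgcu

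The miRNAs with the most marked decreases, with the other arm of the miR-335 hairpin, were the following, and no seed was shared among them.
hsa-miR-335-3p: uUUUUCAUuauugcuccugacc
hsa-miR-335-5p: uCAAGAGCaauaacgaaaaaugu
hsa-miR-10a-5p: uACCCUGUagauccgaauuugug
hsa-miR-149-5p: uCUGGCUCcgugucuucacuccc
hsa-miR-30a-3p: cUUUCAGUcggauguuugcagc
hsa-miR-224-5p: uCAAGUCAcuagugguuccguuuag
hsa-miR-452-5p: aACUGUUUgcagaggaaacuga

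Members of 2 seed families are shown because their counts are summed below. The miR-17 family had the seed of miR-17-5p, and the miR-16 family had that of miR-16-5p.
hsa-miR-17-5p: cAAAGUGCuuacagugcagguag
hsa-miR-20a-5p: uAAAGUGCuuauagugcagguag
hsa-miR-93-5p: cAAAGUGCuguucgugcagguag
hsa-miR-106b-5p: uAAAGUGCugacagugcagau
hsa-miR-16-5p: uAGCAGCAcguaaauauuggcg
hsa-miR-15b-5p: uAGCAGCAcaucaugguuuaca
hsa-miR-424-5p: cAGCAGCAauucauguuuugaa

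The depth of the 3 libraries was 735436 counts in the control, 657105 in T1 and 767287 in T5, within the range of 633318 to 900424 over the study. A count was found for 1031, 908 and 965 miRNAs in the same order, and 779 of the 1307 detected miRNAs had no more than 9 counts over all 3 libraries. A count of 0 allows up to 3 counts, or between 3.91 and 4.57 CPM (counts relative to the library total). No miRNA at 0 in 1 BEAS-2B library had more than 9 counts in another. The bronchial epithelial markers of the miR-200 family were low. The 11 members of their list, which includes miR-205, summed to 498, 306 and 346 counts, mostly miR-200b-3p, whereas miR-205-5p had 1, 0 and 2 counts and miR-141-3p had 1, 1 and 2. Markers of other cells were near 0 for striated muscle (2, 3 and 2 counts), liver (14, 7 and 11) and pluripotent or placental cells (7, 1 and 3). The neural list held 1330, 790 and 706 counts, nearly all of them miR-128-3p, and the endothelial list held 399, 230 and 203, nearly all of them miR-126-3p. The blood cell list summed to 58, 10 and 13 counts, most of them miR-486-5p (35, 3 and 6) and miR-486-3p (18, 3 and 3). Its members miR-223-3p and miR-150-5p were at 0 in all 3 libraries, and miR-142-3p had 1, 1 and 0 counts.

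A single miRNA, miR-21-5p, an oncogenic and profibrotic miRNA whose hairpin lies in an intron of VMP1, took a large and unequal part of the reads. It had 260388 counts in the control, 350475 in T1 and 438582 in T5. Its share of all counts was 35.4% in the control (exact 95% interval 35.3 to 35.5), 53.3% in T1 (53.2 to 53.5) and 57.2% in T5 (57.0 to 57.3). Both treated libraries were thus far above the control. All other miRNAs together had 475048, 306630 and 328705 counts, so the untreated library had the most reads outside miR-21-5p. The reads were spread over more miRNAs in the control, where 42 miRNAs made up 90% of the counts, against 30 in T1 and 31 in T5. After miR-21-5p the most abundant miRNA was miR-27a-3p in the control and miR-100-5p in both treated libraries, and let-7f-5p was the fourth in each library.

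Because of this shift, every log2 ratio depends on how the libraries are scaled. The main scaling was the trimmed mean of M-values (TMM), which sets aside the miRNAs with the most extreme ratios and abundances. Ratios were also taken under 7 other scalings, and the range over all 8 is given beside the members described. The normalised data value (ND) is log2(normalised count + 1). The criteria of the study, an ND of at least 8, which is 255 normalised counts, in the more abundant of the 2 libraries and a fold change of at least 1.4, were used for counts of miRNAs. An ND of at least 8 was reached in at least 1 BEAS-2B library by 126 miRNAs. Intervals are 95% counting intervals.

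The comparison of T5 with the control asked which miRNAs differ in treated cells. The ND criterion was met by 125 miRNAs, and 45 of them also differed by the required fold, which is 36%. They comprised 25 higher miRNAs (20%) and 20 lower ones (16%). The largest increase was that of miR-455-3p and the largest decrease that of miR-335-3p. The interval lay wholly beyond 1.4-fold for 30 of the 45, of which 19 were higher and 11 lower. A difference of at least 2-fold was found for 10 higher and 5 lower miRNAs. Over all 125, the median log2 ratio was -0.08, with quartiles of -0.38 and 0.30. Counting error was small beside these differences, since the interval excluded 0 for 107 of the 125, and the variation between cultures was not measured.

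**Figure D1:**
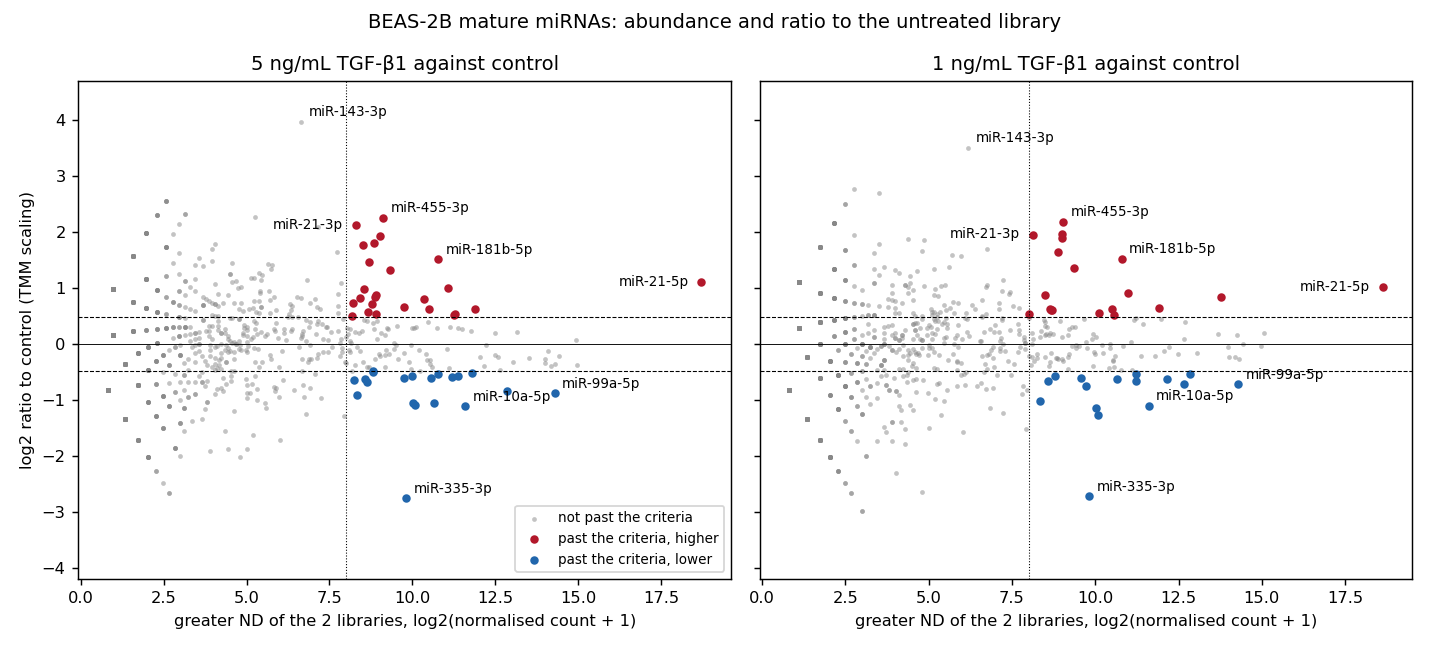
Log2 ratio to the untreated BEAS-2B library (vertical axis, TMM) against the greater ND of the 2 libraries compared (horizontal axis) for each mature miRNA with a count, in T5 (5 ng/mL, left) and T1 (1 ng/mL, right). Dashed lines mark 1.4-fold and the dotted line an ND of 8. The points past both criteria are 25 higher and 20 lower in T5, and 19 higher and 16 lower in T1, with miR-335-3p the lowest of them in both panels and miR-21-5p far to the right.

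Both arms of the miR-455 hairpin were among the most raised. The hairpin of hsa-miR-455-3p lies at chr9:114209434-114209529 (GRCh38, plus strand) in an intron of COL27A1, a gene for a fibrillar collagen chain. hsa-miR-455-3p had 150 counts in the control, 456 in T1 and 565 in T5. Its log2 ratio in T5 was 2.25 (interval 2.00 to 2.53), and it lay between 1.85 and 2.43 over the scalings. hsa-miR-455-5p had 177, 440 and 530 counts and a log2 ratio of 1.92 (1.68 to 2.19). Both treated libraries were therefore well above the control for both arms under every scaling.

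The passenger strand of miR-21 moved further than the guide. miR-21-3p had 92 counts in the control, 239 in T1 and 318 in T5. Its log2 ratio in T5 was 2.12 (1.80 to 2.49; 1.72 to 2.30 over the scalings), against 1.10 (1.10 to 1.11) for miR-21-5p. The increase of miR-21-5p was the value most open to scaling. It was 0.69 with total counts, 1.28 with total counts from which miR-21-5p was left out, and 0 with quantile normalisation, which gives the most abundant miRNA of each library the same value by construction.

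The miR-181 family, which carries 1 common seed on its 5p arms, had 3 of its 10 listed members past the ND criterion. These 3 passed as higher at both doses, beside 20% in T5 and 15.8% in T1 of all miRNAs that met it. hsa-miR-181b-5p had 800 counts in the control, 1527 in T1 and 1790 in T5. The log2 ratio of hsa-miR-181b-5p in T5 was 1.51 (1.39 to 1.63; 1.10 to 1.69 over the scalings). hsa-miR-181a-5p had 1397, 1747 and 2204 counts and a log2 ratio of 1.01 (0.91 to 1.11; 0.60 to 1.19). The 3p strand hsa-miR-181a-2-3p, whose hairpin lies at chr9:124692442-124692551 in an intron of the host gene MIR181A2HG, had 170, 441 and 470 counts. Its log2 ratio was 1.81 (1.56 to 2.08; 1.4 to 1.99). All 3 passed the criteria under every scaling in T5, as did 18 of all 125 miRNAs, these 3 included. The less abundant members, chosen after their values were seen, had 42, 92 and 144 counts for miR-181a-3p and 9, 24 and 38 for miR-181b-3p, whereas miR-181d-5p had 70, 72 and 77 and miR-181c-5p had 6, 5 and 4.

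The remaining members with at least a 2-fold increase did not share a family. miR-148a-3p, which is known to target DNMT1, had 195, 405 and 424 counts and a log2 ratio of 1.46 in T5 (1.22 to 1.72; 1.06 to 1.65 over the scalings). miR-27a-5p, the minor strand of a hairpin in the cluster of miR-23a and miR-24, had 331, 564 and 649 counts and a log2 ratio of 1.32 (1.13 to 1.52; 0.91 to 1.5). In T1 their log2 ratios were 1.64 (1.39 to 1.90) and 1.36 (1.16 to 1.56), so both treated libraries lay well above the control.

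miR-193b-3p differed from these in its relation to dose. It had 138 counts in the control, 127 in T1 and 370 in T5. It passed the criteria in T5 and not in T1, with a log2 ratio of 1.76 in T5 (1.49 to 2.07; 1.36 to 1.94 over the scalings) and of 0.47 in T1 (0.11 to 0.83). Its neighbour on chromosome 16, miR-365a-3p, had 229, 180 and 299 counts, with a log2 ratio of 0.73 in T5 (0.48 to 0.99) and 0.24 in T1 (-0.05 to 0.53). The minor strands of these hairpins, at no more than 44 counts, were higher at both doses. In T1 miR-193b-5p had a log2 ratio of 1.37 (0.65 to 2.23) and miR-365a-5p one of 1.60 (0.88 to 2.48). miR-1291, cut from a small nucleolar RNA in an intron of KANSL2, had 243, 222 and 376 counts and log2 ratios of 0.98 and 0.46.

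A further group of higher miRNAs had log2 ratios between 0.50 and 0.88 in T5. The polycistronic cluster of miR-17 to miR-92a on chromosome 13, which promotes proliferation, had 3 members that met the ND criterion, and all 3 passed as higher, beside 20% of all miRNAs. miR-20a-5p had 978, 951 and 1337 counts and a log2 ratio of 0.80 (0.68 to 0.92), miR-17-5p had a ratio of 0.66 (0.52 to 0.81), and miR-92a-3p had a ratio of 0.53 (0.44 to 0.61). Under total-count scaling these would lie at 0.39, 0.25 and 0.12 and pass no more. miR-4521, miR-424-5p, miR-125b-1-3p, miR-1246, miR-3529-3p, miR-7-5p, miR-374b-5p, miR-340-5p, let-7e-5p and miR-365b-3p were the other miRNAs of this group. None of these miRNAs passed under all 8 scalings.

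**Figure D2:**
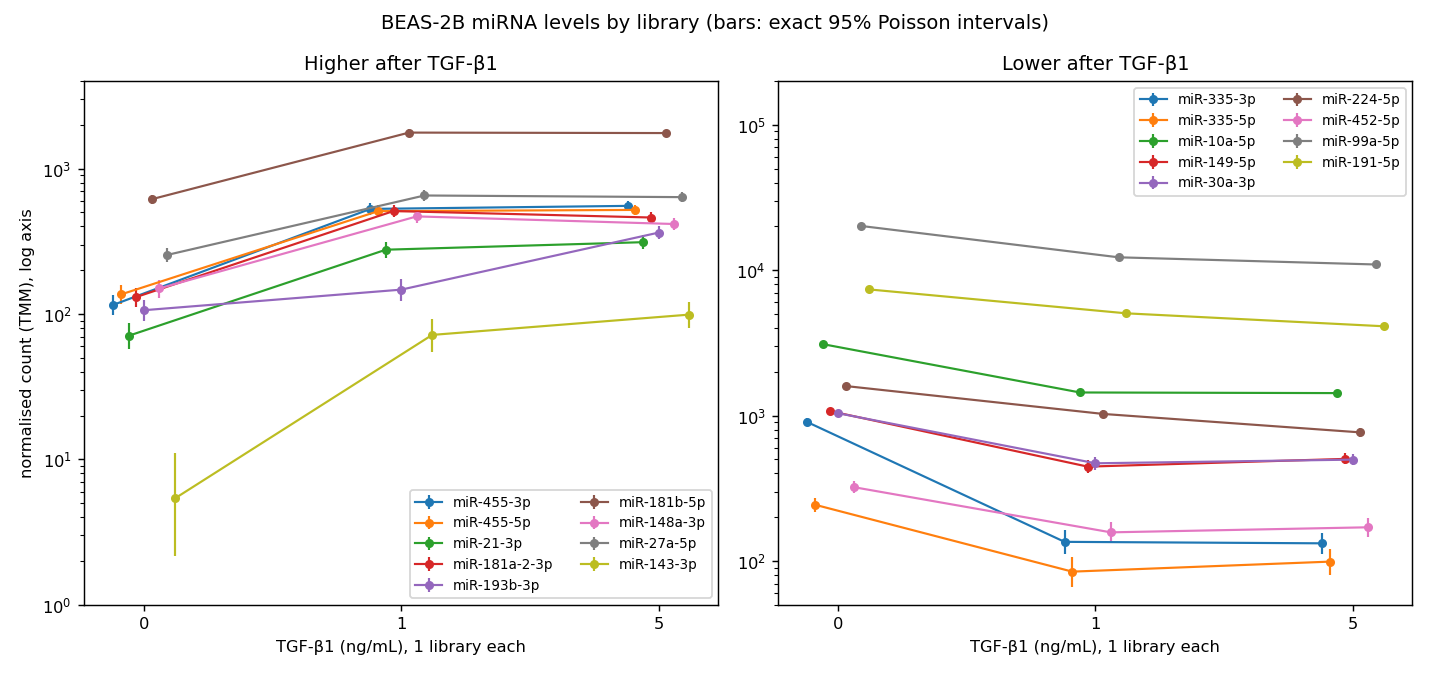
Normalised counts (TMM, log axis) in the 3 BEAS-2B libraries, by TGF-β1 dose, for miRNAs that were higher (left) or lower (right) after TGF-β1. Points are single libraries and bars are exact 95% Poisson intervals. miR-455-3p, miR-455-5p, miR-181a-2-3p and miR-148a-3p reach their treated level in T1, whereas miR-193b-3p lies higher in T5 than in T1 (log2 ratios of 1.76 and 0.47).

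Among the lower miRNAs, miR-335-3p stood apart. The hairpin of hsa-miR-335-3p lies at chr7:130496111-130496204 (GRCh38, plus strand) in an intron of MEST, an imprinted gene expressed in mesoderm. hsa-miR-335-3p had 1174 counts in the control, 117 in T1 and 135 in T5. Both treated libraries were far below the control, by a log2 ratio of -2.76 in T5 (-3.04 to -2.51) and -2.73 in T1 (-3.02 to -2.46). The range over the scalings was -3.17 to -2.58 in T5, whereas no other lower miRNA past the criteria had a TMM value below -1.12. The other strand, hsa-miR-335-5p, had 317, 73 and 101 counts. It was also lower, by -1.29 in T5 (-1.64 to -0.97) and -1.52 in T1 (-1.92 to -1.16), but its 243 normalised counts in the control lay just under the ND criterion.

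miR-10a-5p, miR-149-5p and miR-30a-3p were each more than 2-fold lower at both doses. The hairpin of hsa-miR-10a-5p lies at chr17:48579838-48579947 (minus strand) within the HOXB cluster of developmental transcription factors, in an intron of HOXB3. It had 4034 counts in the control, 1246 in T1 and 1457 in T5, with a log2 ratio of -1.12 in T5 (-1.21 to -1.03; -1.53 to -0.94 over the scalings). hsa-miR-149-5p, from an intron of the glypican gene GPC1 at chr2:240456001-240456089, had 1395, 385 and 514 counts and a log2 ratio of -1.09 (-1.24 to -0.94; -1.5 to -0.91). hsa-miR-30a-3p had 1350, 406 and 508 counts and a log2 ratio of -1.06 (-1.21 to -0.91; -1.47 to -0.88).

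A pair of miRNAs from introns of GABRE, the gene of a GABA receptor subunit, was lower together. hsa-miR-224-5p (chrX:151958578-151958658) had 2076 counts in the control, 887 in T1 and 782 in T5, with a log2 ratio of -1.06 in T5 (-1.18 to -0.94). hsa-miR-452-5p (chrX:151959628-151959712) had 419, 136 and 174 counts and a log2 ratio of -0.91 (-1.18 to -0.66). Both passed the criteria at both doses under every scaling.

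The abundant miRNAs of the lower group were miR-99a-5p and miR-191-5p. miR-99a-5p, which targets MTOR and is cut from the host transcript MIR99AHG together with let-7c-5p, had 26190, 10595 and 11167 counts and a log2 ratio of -0.88 in T5 (-0.91 to -0.85; -1.29 to -0.49 over the scalings). Its cluster partner let-7c-5p had 1956, 974 and 1010 counts and a log2 ratio of -0.60 (-0.71 to -0.49). miR-191-5p had 9591, 4363 and 4199 counts and a log2 ratio of -0.84 (-0.89 to -0.79; -1.25 to -0.53). The other 11 lower miRNAs in T5 were miR-185-5p, miR-126-3p, miR-425-5p, miR-92b-3p, miR-30c-5p, miR-128-3p, miR-3184-5p, miR-222-3p, miR-423-3p, miR-28-5p and miR-15b-3p, with log2 ratios between -0.67 and -0.49. Of these, only miR-185-5p passed under all 8 scalings.

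**Figure D3:**
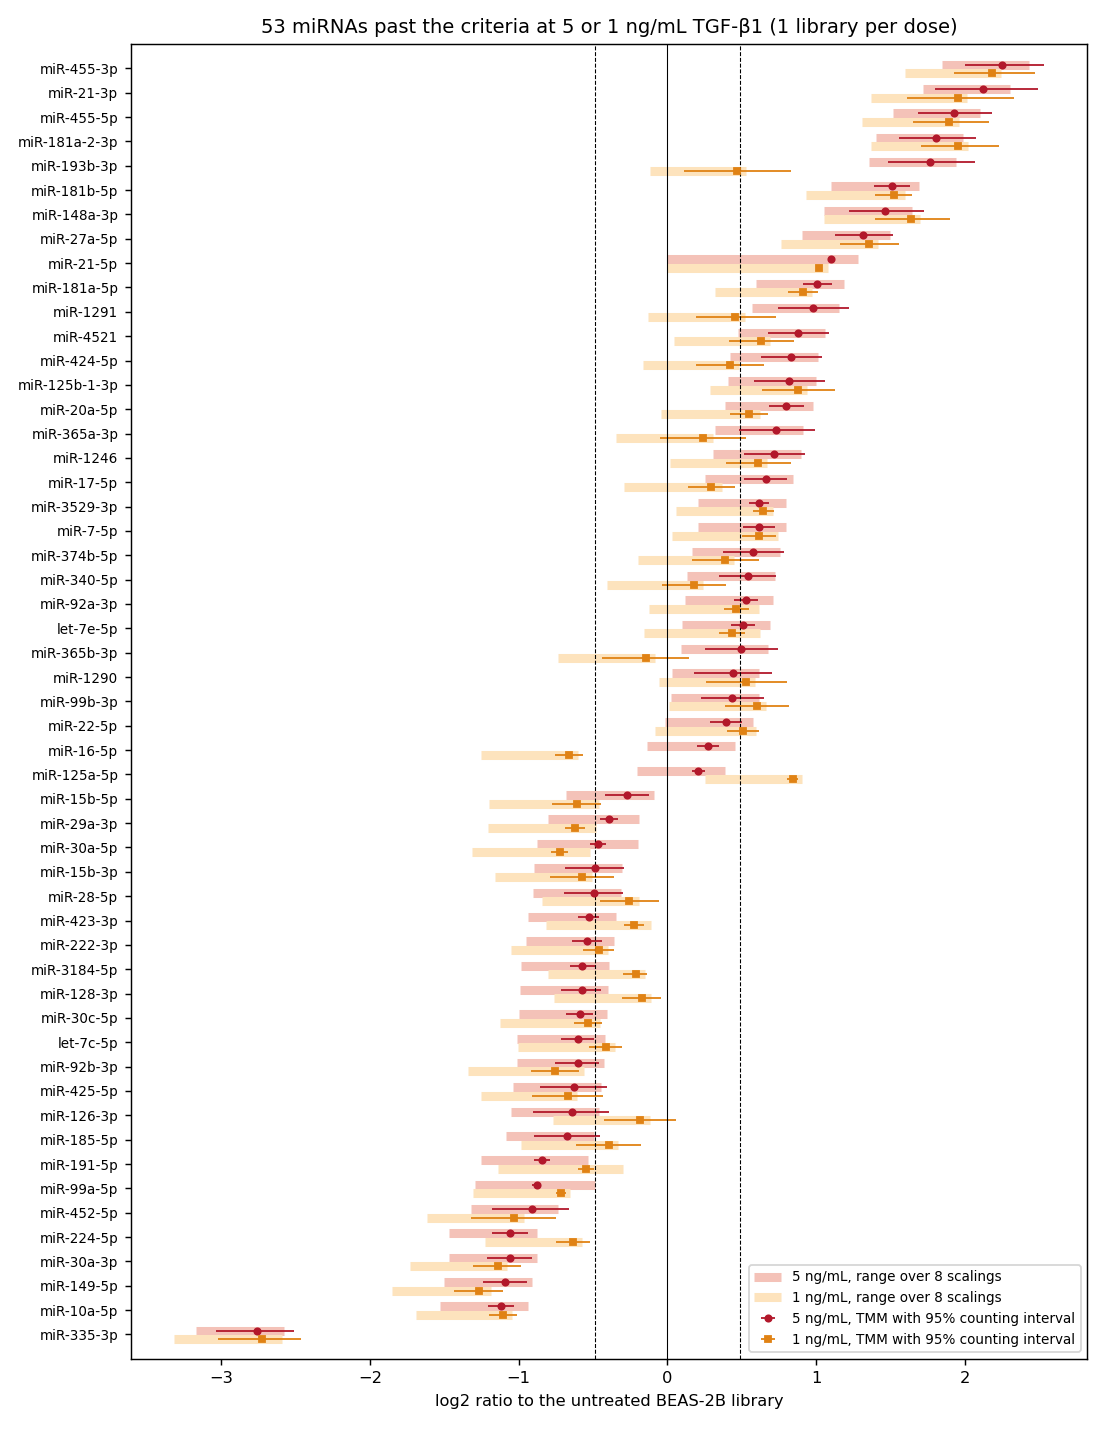
Log2 ratio to the untreated library for the 53 miRNAs past the criteria at either dose. Points and thin lines are TMM values with 95% counting intervals (circles, 5 ng/mL; squares, 1 ng/mL), pale bars the range over the 8 scalings, and dashed lines 1.4-fold. Pale bars are wider than counting intervals for most of the miRNAs, and both stay clear of 0 for miR-335-3p and miR-455-3p.

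In T1, 35 of 120 miRNAs passed the criteria, which is 29.2%, with 19 higher (15.8%) and 16 lower (13.3%). The 5 most raised were miR-455-3p (log2 ratio 2.18), miR-181a-2-3p (1.96), miR-21-3p (1.95), miR-455-5p (1.90) and miR-148a-3p (1.64). The 5 most lowered were miR-335-3p (-2.73), miR-149-5p (-1.27), miR-30a-3p (-1.14), miR-10a-5p (-1.10) and miR-452-5p (-1.03). Of the 35, 25 had an interval wholly beyond 1.4-fold, 13 higher and 12 lower. The doses share their control library, so an unusual control would move both in the same way, and likeness between them is not given as a result.

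A few miRNAs passed in T1 and not in T5. miR-16-5p, a tumour-suppressive miRNA that targets BCL2, had 3114 counts in the control, 1306 in T1 and 2956 in T5. It was low in the T1 library alone, with a log2 ratio of -0.66 there (-0.76 to -0.57) and 0.27 in T5 (0.20 to 0.35). miR-125a-5p was the reverse, with 10169, 12109 and 9222 counts and log2 ratios of 0.84 in T1 (0.80 to 0.88) and 0.21 in T5 (0.17 to 0.25). miR-29a-3p, which targets fibrillar collagen mRNAs, had 5946, 2572 and 3556 counts, with log2 ratios of -0.62 (-0.69 to -0.55) in T1 and -0.39 (-0.45 to -0.33) in T5. miR-15b-5p and miR-30a-5p also passed as lower in T1, and miR-22-5p, miR-99b-3p and miR-1290 as higher, and in T5 these 5 lay on the same side of 0 with ratios short of 1.4-fold.

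Set directly against each other, the treated libraries differed in few miRNAs. Of 121 miRNAs that met the ND criterion, 8 passed between T5 and T1, which is 6.61%, with 7 higher (5.79%) and 1 lower (0.826%) in T5. The 7 higher ones were hsa-miR-193b-3p with a log2 difference of 1.30 (1.01 to 1.61), hsa-miR-197-3p with 1.02 (0.71 to 1.35), hsa-miR-16-5p with 0.94 (0.84 to 1.03), hsa-miR-365b-3p, hsa-miR-574-3p, hsa-miR-1291 and hsa-miR-365a-3p. The lower one was hsa-miR-125a-5p with -0.63 (-0.67 to -0.59). With 1 library per dose, a dose effect cannot be told apart from a difference between these libraries.

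Scaling had more effect on the number and direction of the calls than counting error. Total-count scaling gave 79 of 133 in T5 (59.4%), with 11 higher (8.27%) and 68 lower (51.1%). Unscaled counts gave 74 of 133 (55.6%), with 12 higher (9.02%) and 62 lower (46.6%). Leaving miR-21-5p out of the total turned this around and gave 42 of 130 (32.3%), with 33 higher (25.4%) and 9 lower (6.92%). The remaining scalings lay between these. DESeq2 size factors gave 54 of 126 (42.9%), with 20 higher (15.9%) and 34 lower (27%). Upper-quartile scaling gave 47 of 128 (36.7%), with 21 higher (16.4%) and 26 lower (20.3%), and quantile normalisation 46 of 130 (35.4%), with 21 higher (16.2%) and 25 lower (19.2%). TMM within BEAS-2B cells gave 46 of 131 (35.1%), with 25 higher (19.1%) and 21 lower (16%). The share of calls that were higher was 55.6% under TMM and ranged from 13.9% (total count) to 78.6% (total count without miR-21-5p). The median log2 ratio of all miRNAs that met the ND criterion moved by -0.41 from TMM to total-count scaling in T5 and by -0.43 in T1. TMM ratios are given unless another scaling is named, and under TMM the median miRNA lay at -0.08 and -0.04.

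Lower calls also outnumbered higher ones in T1 under the scalings that keep miR-21-5p in the total. Total-count scaling gave 70 of 130 (53.8%), with 8 higher (6.15%) and 62 lower (47.7%), and unscaled counts 88 of 129 (68.2%), with 6 higher (4.65%) and 82 lower (63.6%). Without miR-21-5p in the total there were 39 of 121 (32.2%), with 23 higher (19%) and 16 lower (13.2%). DESeq2 size factors gave 39 of 123 (31.7%), with 16 higher (13%) and 23 lower (18.7%), and upper-quartile scaling 40 of 127 (31.5%), with 24 higher (18.9%) and 16 lower (12.6%). TMM within BEAS-2B cells gave 37 of 126 (29.4%), with 19 higher (15.1%) and 18 lower (14.3%), and quantile normalisation 37 of 128 (28.9%), with 19 higher (14.8%) and 18 lower (14.1%).

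The calls that held under every scaling were a small set of miRNAs. In T5 18 miRNAs passed under all 8 scalings, with 10 higher and 8 lower, and 101 passed under at least 1. The 10 higher were both arms of miR-455, miR-21-3p, miR-181a-2-3p, miR-193b-3p, miR-181b-5p, miR-148a-3p, miR-27a-5p, miR-181a-5p and miR-1291. The 8 lower were miR-335-3p, miR-10a-5p, miR-149-5p, miR-30a-3p, miR-224-5p, miR-452-5p, miR-191-5p and miR-185-5p. In T1 18 miRNAs also passed under all 8 scalings, 6 higher and 12 lower, and 106 passed under at least 1.

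**Figure D4:**
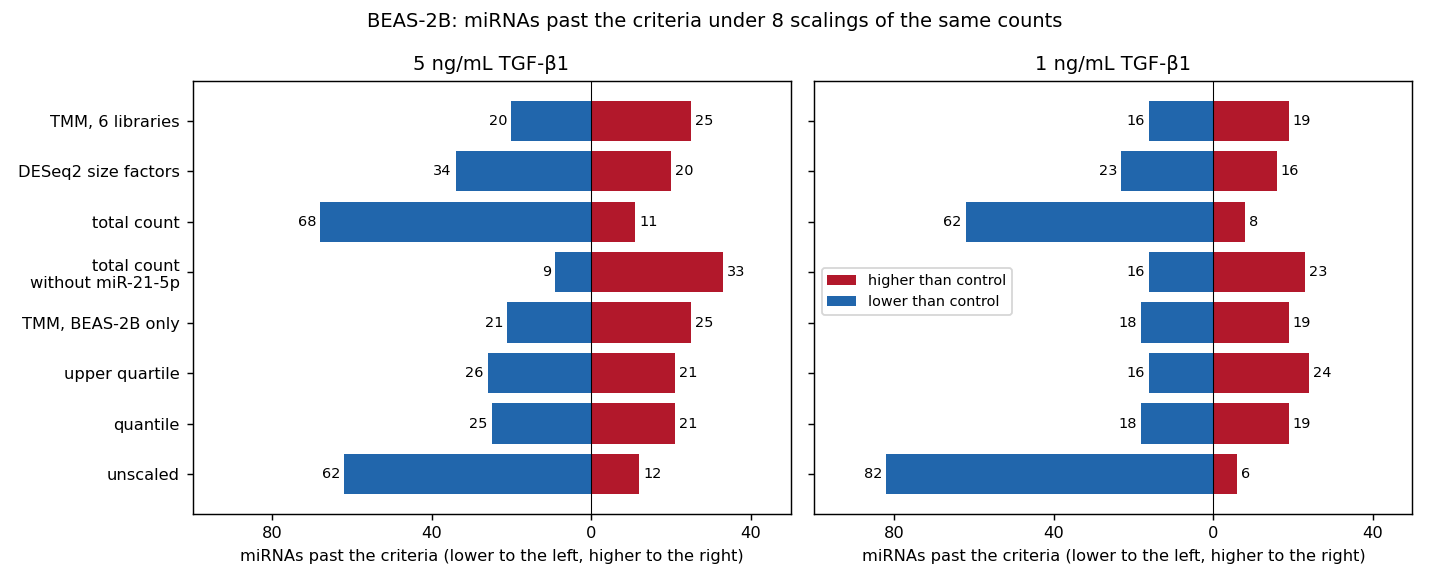
Number of miRNAs past the criteria in BEAS-2B cells in T5 (5 ng/mL, left) and T1 (1 ng/mL, right) under 8 scalings of the same counts, with lower miRNAs drawn to the left of 0 and higher ones to the right. Lower miRNAs number 68 in T5 with total-count scaling and 9 when miR-21-5p is left out of the total.

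The arms of a hairpin allow a comparison in which library scaling cancels, because the minor strand is set against the major strand of the same library. The major strand is the arm with more counts over the 3 BEAS-2B libraries together, so treated counts enter the label. A strand that fell after treatment can thus be labelled minor and counted as a loss. Among the losses in T5, miR-424-3p held 51.6% of its hairpin's reads in the control and miR-331-5p 54.3%. Of 96 hairpins with at least 20 counts in each arm over the control and T5 libraries, the minor strand gained relative to the major strand in 19 in T5 and lost in 11, by an interval that excluded 0. The interval included 0 in the other 66. In T1 17 gained and 10 lost. Of the 40 hairpins with at least 100 counts in each arm, 14 gained and 7 lost in T5, and 9 gained and 7 lost in T1.

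miR-27a had the largest gain of a minor strand among the 40 hairpins. Its 5p strand had 331, 564 and 649 counts against 41887, 27145 and 25345 for the 3p strand, a regulator of adipogenesis. Under TMM the log2 ratio of the 3p strand was -0.37 in T5 and -0.04 in T1, short of 1.4-fold at both doses. The minor strand made up 0.784% of the hairpin's reads in the control, 2.04% in T1 and 2.50% in T5. The log2 difference between arms in T5 was 1.70 (1.5 to 1.89). In miR-335 the 5p strand lost less than the 3p strand, a difference of 1.47 (1.06 to 1.88), and its share was 21.3% in the control, 38.4% in T1 and 42.8% in T5. In miR-21 the difference was 1.04 (0.70 to 1.37), although miR-21-3p stayed at or below 0.0725% of the hairpin's reads. The arms of miR-455 did not separate beyond counting error, with a difference of -0.33 (-0.69 to 0.03) for 5p against 3p.

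The hairpins of miR-125b gave opposite values for their 3p strands, which differ in sequence and so can be told apart. The common 5p strand had 7980, 5648 and 5338 counts. miR-125b-1-3p had 252, 308 and 349 counts, a difference of 1.05 from the 5p strand in T5 (0.81 to 1.29). miR-125b-2-3p had 83, 18 and 19 counts, a difference of -1.55 (-2.27 to -0.83). Their hairpins lie on chromosomes 11 and 21, the latter in the same host transcript as the lowered miR-99a-5p and let-7c-5p. The 3p strands of the miR-181a hairpins were both higher relative to miR-181a-5p, by 0.81 (0.54 to 1.08) for miR-181a-2-3p and by 1.12 (0.61 to 1.63) for miR-181a-3p.

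Some arms moved in different directions at the doses. miR-31-3p had 140, 68 and 235 counts, a difference from miR-31-5p of 0.80 in T5 (0.48 to 1.13) and -0.53 in T1 (-0.97 to -0.10). miR-16-2-3p had 1229, 893 and 766 counts, a difference from miR-16-5p of -0.61 in T5 (-0.76 to -0.46) and 0.79 in T1 (0.64 to 0.95), where miR-16-5p was low. The minor strands of miR-424 (-0.81), miR-30e (-0.70), miR-30a (-0.59) and miR-28 (-0.48) lost against the major strand in T5. A mature strand that several hairpins encode, as for miR-16-5p, miR-181a-5p and miR-125b-5p, enters each comparison with its whole count.

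**Figure D5:**
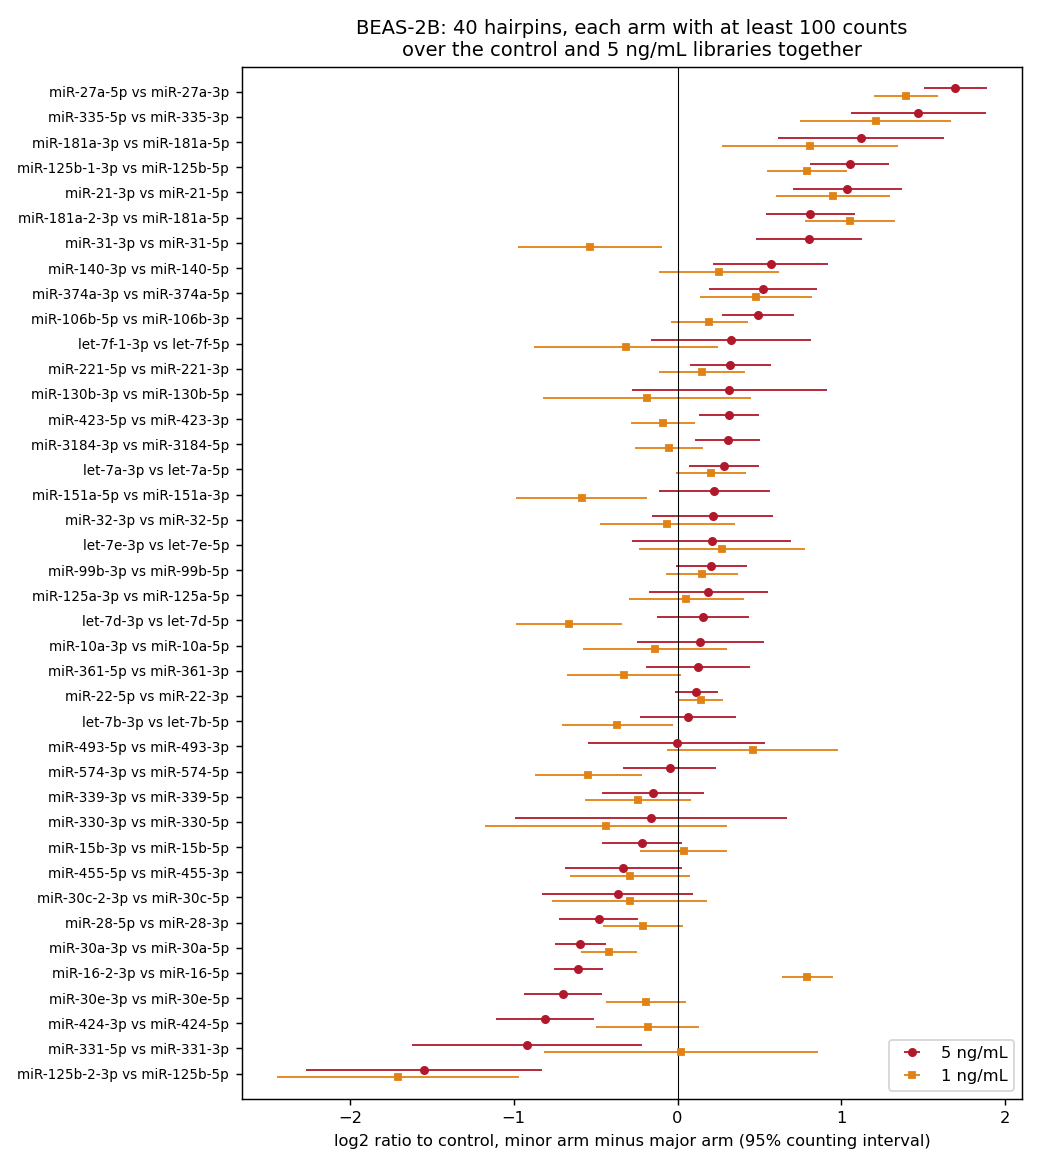
Log2 ratio to the untreated library of the minor strand minus that of the major strand for the 40 BEAS-2B hairpins with the most reads in both arms, with 95% counting intervals (circles, 5 ng/mL; squares, 1 ng/mL). Values right of 0 mean a gain of the minor strand. miR-27a-5p and miR-335-5p have the largest gains and miR-125b-2-3p the largest loss.

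Counts were summed over mature miRNAs with the same seed, since these share target sites. Families with an ND of at least 8 numbered 89, of which 17 were higher and 13 lower by 1.4-fold in T5. Neither share exceeded that of single miRNAs in T5, of which 20% were higher and 16% lower. The family of miR-181a-5p and miR-181b-5p (seed ACAUUCA) took 0.309% of the reads in the control, 0.510% in T1 and 0.531% in T5, a log2 ratio of 1.19 in T5 (1.12 to 1.27) and of 0.78 under total-count scaling. The miR-17 family (seed AAAGUGC) had 3985, 3112 and 4481 counts and log2 ratios of 0.52 in T5 (0.46 to 0.58) and 0.23 in T1, of which the latter turned to -0.19 under total-count scaling. The miR-16 family (seed AGCAGCA) had 4544, 2082 and 4181 counts and was low in the T1 library alone, with log2 ratios of -0.54 there (-0.61 to -0.46) and 0.23 in T5.

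The family with the most reads after miR-21-5p was let-7 (seed GAGGUAG), which restrains proliferation. It had 101037, 69144 and 68291 counts, or 13.7%, 10.5% and 8.90% of the reads. Its log2 ratio in T5 was -0.22 under TMM (-0.23 to -0.20) and -0.63 under total-count scaling, and in T1 it was 0.04 under TMM and -0.38 under total-count scaling. The family of miR-100-5p and miR-99a-5p (seed ACCCGUA) had log2 ratios of -0.21 in T5 and -0.07 in T1. The family of miR-27a-3p and miR-27b-3p (UCACAGU) had -0.34 and -0.10, and that of miR-26a-5p (UCAAGUA) had -0.36 and -0.26. The miR-30 family (GUAAACA) had -0.41 and -0.59, and the miR-29 family (AGCACCA) -0.39 and -0.63, so both were past 1.4-fold in T1 and not in T5.

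Further groups were followed as lists, whose medians are set beside those of all miRNAs with at least 10 normalised counts, 0.06 in T5 over 400 miRNAs and 0.02 in T1 over 401. Counts of members past the criteria stand beside shares of 36% in T5 and 29.2% in T1 over all miRNAs that met the ND criterion, and most lists had too few such members for their count to be read against these shares. In the miR-200 family with miR-205, which maintains the epithelial state by repressing ZEB1 and ZEB2, 1 of 11 members met the ND criterion and none passed. That member, miR-200b-3p, had 356, 237 and 259 counts, a log2 ratio of -0.11 in T5 (-0.35 to 0.13), and miR-200a-3p had 73, 35 and 33 counts. The list's median was -0.11 in T5 and -0.30 in T1. miR-143 and miR-145, markers of smooth muscle and myofibroblasts, summed to 7, 73 and 110 counts. miR-143-3p had 7, 62 and 101 of these, a log2 ratio of 3.97 (3.11 to 5.55) in T5 and 3.51 (2.61 to 5.11) in T1, but at no more than 101 counts it did not meet the ND criterion. The fibroblast miRNAs miR-199 and miR-214 summed to 19, 11 and 8 counts.

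For miR-146 and miR-155, regulators of inflammation, 3 members met the ND criterion and none passed at either dose, with a median of -0.10 in T5 and -0.05 in T1. Of 2 members of miR-221 and miR-222 that met it, miR-222-3p passed, lower in T5. In the let-7 list 9 members met the criterion in T5, with let-7e-5p higher and let-7c-5p lower. In the clusters of miR-23, miR-27 and miR-24, 6 members met it and miR-27a-5p alone passed, while the sum of the list was -0.30 (-0.31 to -0.28). In the miR-106b-25 cluster, related to miR-17-92, 4 members met it and none passed. The imprinted 14q32 cluster summed to 2044, 1642 and 1806 counts over 83 listed names, and neither of its 2 members that met the criterion in T5 passed.

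Clustered miRNAs were examined at 17 loci where at least 2 hairpins lay within 10000 bases. All members that met the ND criterion passed in T5 for miR-181a-5p with miR-181b-5p, miR-17-5p with miR-20a-5p and miR-92a-3p, miR-193b-3p with miR-365a-3p, let-7c-5p with miR-99a-5p, and miR-224-5p with miR-452-5p. At the other 12 loci not every member passed, and the locus of miR-941 held 1 mature miRNA. Over all miRNAs that met the ND criterion, 36% passed in T5 and 29.2% in T1. A miRNA with several hairpins, such as let-7a-5p, was counted whole at each locus. The reads of miR-365a-3p cannot be told from those of miR-365b-3p, which has the same sequence. In the chromosome 19 cluster of miR-23a, miR-27a and miR-24, log2 ratios ran from -0.37 to 1.32. In the cluster of let-7e, miR-99b and miR-125a, 1 of 4 members passed in T5 and 2 in T1, all of them higher. Of the 10 listed miRNAs of the HOX clusters, miR-10a-5p alone met the ND criterion. Below it, and chosen after their values were seen, miR-10a-3p had 196, 55 and 78 counts, miR-615-3p had 27, 8 and 5, and miR-196a-5p had 2, 2 and 4.

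The study selected 7 miRNAs for their predicted targets from those that had changed in both cell lines of these libraries, so neither their passing nor their direction here is independent evidence. All 7 passed in T5 in BEAS-2B cells, 5 higher and 2 lower, and 3 passed in T1, 2 higher and 1 lower, beside 36% and 29.2% of all miRNAs. They were miR-27a-5p (1.32), miR-20a-5p (0.80), miR-17-5p (0.66), miR-374b-5p (0.58), let-7e-5p (0.51), miR-3184-5p (-0.57) and miR-335-3p (-2.76) by their log2 ratios in T5. Of the 7, miR-27a-5p and miR-335-3p passed under all 8 scalings.

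For some miRNAs the reads could not be assigned with certainty. Of the 45 past the criteria in T5, 7 belonged to a pair with the same sequence or with at least 15 complementary bases. Examples of an opposite-strand and an identical pair are the following.
hsa-miR-423-3p: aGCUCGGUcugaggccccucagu
hsa-miR-3184-5p: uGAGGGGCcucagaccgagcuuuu
hsa-miR-365a-3p: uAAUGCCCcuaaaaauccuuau
hsa-miR-365b-3p: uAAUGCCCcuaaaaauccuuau

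hsa-miR-423-3p had 4582, 2606 and 2491 counts and hsa-miR-3184-5p had 3425, 1961 and 1808, so that miR-3184-5p stood at 0.726 to 0.752 of miR-423-3p in every library. Without strand in the counting, reads of these partners cannot be told apart, and the handling of strand was not given in the sources used here. The identical miR-365a-3p and miR-365b-3p had 229 and 265, 180 and 159, and 299 and 294 counts. miR-7-5p with miR-3529-3p, and miR-374b-5p with miR-374c-3p, were further pairs of this kind. Calls for single members of such pairs are therefore uncertain as to which strand or locus they come from.

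Values for A549 cells, a lung adenocarcinoma line treated in the same way, show where BEAS-2B cells stood apart. For miR-335-3p the log2 ratio in A549 cells at 5 ng/mL was -0.63, from 358 and 206 counts, and the difference between lines was -2.13 (-2.49 to -1.78). For miR-455-3p it was 2.01 in A549 cells, a difference of 0.25 (-0.13 to 0.63). For miR-21-5p it was -0.32 in A549 cells, a difference of 1.42 (1.41 to 1.43). That difference was taken under TMM alone, and its interval does not cover scaling. Over the 8 scalings, the T5 ratio of miR-21-5p in BEAS-2B cells ran from 0 to 1.28. Its share of the A549 reads was 53.2% without treatment and fell to 47.6% in the 5 ng/mL library. The 1 ng/mL library of A549 cells had a higher share, 56.8%. miR-181b-5p differed by 0.02 (-0.17 to 0.21) and let-7e-5p by 0.00 (-0.11 to 0.12). The T5 ratio of miR-148a-3p (0.16 in A549 cells) exceeded the A549 ratio by 1.31 (1.04 to 1.59). That of miR-193b-3p (0.33) did so by 1.44 (1.09 to 1.79), and that of miR-30a-3p (-0.03) was lower by 1.03. These differences concern ratios and not levels, since miR-148a-3p had 924, 965 and 921 counts in A549 cells (control, 1 and 5 ng/mL). miR-193b-3p had 360, 677 and 405 counts there, most in the 1 ng/mL library, whereas in BEAS-2B cells it had most in T5. Differences between lines were taken from the 4 counts without the pseudocount. These intervals cover counting error, and no test of the difference between the lines was possible.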

How the data were processed

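Per the labels, total RNA was taken 48 h after treatment and small RNA libraries were prepared with a NEBNext multiplex kit. The deposited values were raw counts of reads per mature miRNA, whole numbers that the authors had not normalised. The submitters' processing notes name Bowtie2 and bedtools, and their versions, the miRNA annotation, the genome build and the use of strand were not given in the sources used here. Molecular identifiers were not mentioned, so intervals and floors cover counting error only.

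TMM factors were computed over all 6 libraries (R 4.3.3, edgeR 4.0.16). Normalised counts were obtained by dividing each count by its library's effective size and restoring the mean effective size of 749498. A log2 ratio is the difference of 2 ND values, and a pseudocount of 1 enters it. Its 95% interval conditions on the sum of the 2 counts, takes the exact Clopper-Pearson bounds of the binomial share and rescales them by effective sizes. Differences between arms and between lines were computed without the pseudocount and carry a Poisson interval of the 4 counts on the log scale. The other scalings were DESeq2 1.42.0 size factors, total count, total count without miR-21-5p, TMM within BEAS-2B cells, upper quartile, quantile (limma 3.58.1) and none. The criteria followed the study, whose methods do not say which library must reach the ND, so the greater was taken here. List members needed 10 normalised counts for a median.

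Sequences and hairpin positions were taken from RefSeq (GRCh38.p14), and host genes from GENCODE 29 (GRCh38). Python 3.11.15, numpy 2.4.6, pandas 2.3.3, scipy 1.17.1 and matplotlib 3.10.9 were used, and the procedure was tested on simulated data. Named miRNAs were the 10 largest increases and decreases in T5 and the 5 largest in T1 past the criteria, their other arms, the 5 most abundant of each library, those past under every scaling, list members with an ND of at least 8, the 5 largest seed families and the miRNAs at 0 in 1 library. Other miRNAs named, among them list members of low count and strands in the hairpin comparison, were picked after their values were seen. The members and lists were chosen with earlier results of these data known. Alternatives are given in the closing section.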

Additional observations from a re-analysis of the deposited data

Results flagged for a closer look

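For 12 of the 45 miRNAs past the criteria in T5 in BEAS-2B cells, the TMM log2 ratio differed in sign between the lines. It had 1 sign at both doses in BEAS-2B cells and the opposite sign at both doses in A549 cells. Signs in A549 cells were taken under TMM alone. Some of these ratios lay near 0, as for miR-423-3p at 1 ng/mL (0.04). The share over all miRNAs that met the ND criterion was not computed, so the 12 are a description. Over the 8 scalings, the lowest T1 ratio in BEAS-2B cells was below 0 for miR-17-5p (-0.29), miR-374b-5p (-0.20) and miR-424-5p (-0.17). It was also below 0 for miR-1291 (-0.13) and miR-20a-5p (-0.04). The same held for miR-340-5p, which had 424 counts in the control and 319 in T1 before scaling. For miR-21-3p it was 1.37. The values below are the log2 ratio in BEAS-2B cells at 5 ng/mL minus that in A549 cells at the same dose, taken from the 4 counts without the pseudocount of 1 that enters each ratio, with counting intervals where given. The difference between the lines was not tested, since each line had 1 library per dose, and the ratios at both doses of a line share 1 control library.

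In 8 miRNAs the BEAS-2B value was the higher. miR-21-3p had the largest difference, 2.96 (2.50 to 3.41), with log2 ratios of 2.12 in BEAS-2B cells and -0.81 in A549 cells. The difference was 1.88 for miR-4521 and 1.82 for miR-374b-5p. For miR-424-5p it was 1.65 and for miR-340-5p it was 1.59. The miR-17-92 members miR-20a-5p and miR-17-5p differed by 1.4 (1.2 to 1.59) and 1.37 (1.13 to 1.60), being higher than the control in BEAS-2B cells (0.80 and 0.66) and lower in A549 cells (-0.60 and -0.70). miR-1291 differed by 1.28.

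In 4 miRNAs the BEAS-2B value was the lower. miR-126-3p, an endothelial miRNA, differed by -1.03 (-1.30 to -0.75), with log2 ratios of -0.64 in BEAS-2B cells and 0.38 in A549 cells. The opposite-strand partners miR-3184-5p and miR-423-3p differed by -1.0 and -0.79, and miR-28-5p differed by -0.71.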

How the results depend on the processing

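No paired analysis was possible because each group had 1 library and the labels carry no replicate numbers, and for the same reason no value was computed without a replicate. Every alternative changed 1 choice at a time. In T5 the 45 miRNAs past the criteria (25 higher, 20 lower) became 79 with total-count scaling (11 higher, 68 lower), 74 without scaling (12 higher, 62 lower), 766 with no ND minimum (374 higher, 392 lower) and 15 with a 2-fold minimum (10 higher, 5 lower). With an ND of at least 9 there were 26, of which 12 were higher, and with an ND of at least 8 in both libraries there were 29, of which 14 were higher. The lower miRNAs numbered 34 with DESeq2 size factors, 9 with miR-21-5p left out of the total, and 11 when the whole interval had to lie beyond 1.4-fold.

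In T1 the 35 past the criteria (19 higher, 16 lower) became 70 with total-count scaling (8 higher, 62 lower), 88 without scaling (6 higher, 82 lower), 752 with no ND minimum (321 higher, 431 lower) and 13 with a 2-fold minimum (8 higher, 5 lower). With an ND of at least 9 there were 23, of which 10 were higher, and with the ND criterion on both libraries 11 were higher.

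Of hairpins with at least 100 counts in each arm, the minor strand was higher in 9 in T1, against 17 with at least 20 counts, and lower in 7 in T5, against 11. With only miRNAs of an ND of at least 8 in the denominator, the share of miR-21-5p was 36.5% in the control, 54.5% in T1 and 58.5% in T5. Of the log2 ratios past 1.4-fold that were recomputed, 4 changed sign, all in T1 without scaling, to -0.057 for miR-1290, -0.040 for miR-20a-5p, -0.081 for miR-22-5p and -0.032 for the seed family of miR-125a-5p, and sign changes of smaller ratios were not counted. In each of these settings the construction (another scale, or a stricter or absent threshold) is the only thing changed. Of the 97 recomputed counts and shares, the other 58 stayed within 1.5 times the main value or its counting interval. Merging of opposite-strand and identical partners, chosen after seeing the data, left all 6 counts within 1.5 times. Depth limits the miRNAs under 255 normalised counts, where counting intervals exceed the fold criterion for most, and the absence of replicate libraries limits every comparison.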

Other observations

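Below an ND of 8, 13 miRNAs were higher and 9 lower in T5 by a counting interval wholly beyond 1.4-fold, and 16 were higher and 9 lower in T1. They were chosen by these values, so the following is a description. Several were strands of hairpins or clusters described above. Beside miR-143-3p, miR-181a-3p, miR-181b-3p, miR-193b-5p (23, 41 and 44 counts in the control, T1 and T5 libraries) and miR-365a-5p (21, 44 and 41) were higher, and miR-335-5p, miR-10a-3p, miR-125b-2-3p and miR-30c-2-3p (136, 51 and 55) were lower. miR-34a-5p, a target of p53, had 23, 31 and 50 counts and a log2 ratio of 1.42 in T5 (0.73 to 2.25). miR-4792 had 87, 129 and 215 counts and a log2 ratio of 1.64 (1.29 to 2.03), miR-7641 had 66, 92 and 115 counts, and miR-582-3p had 26, 53 and 53. miR-95-3p had 41, 9 and 8 counts, miR-584-5p 46, 15 and 11, and miR-7706 144, 84 and 47. The erythroid miR-486-5p had 35, 3 and 6 counts. By the same measure in T1 and not in T5, miR-29b-3p (149, 44 and 93 counts), miR-29c-3p (20, 2 and 15) and miR-454-3p (288, 102 and 228) were lower.

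The letters CAGAC, which R-SMAD proteins are known to recognise in the stems of some precursors, or their reverse complement GUCUG, were searched in the RefSeq hairpin sequences, where both strings were read on the hairpin strand. A match was found in 2 of 23 hairpins of miRNAs higher in T5 (8.70%), in 5 of 20 hairpins of lower ones (25%), in 12 of 72 hairpins of miRNAs with an ND of at least 8 that did not pass (16.7%) and in 311 of all 1560 RefSeq hairpins (19.9%). The groups overlap, since a hairpin whose arms fell in different groups was counted in each, as for MIR423, MIR3184 and MIR30A. Among the lower ones, MIR423 and MIR3184 both had a match. Their strands are opposite-strand partners, so these matches are not separate. A match is a description of the sequence only.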
